A study of Mus musculus with 5 samples.

Results

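Hemidesmosomes are the junctions by which basal epidermal cells hold to the basement membrane, and laminin-332 is the basement membrane protein they bind. The genes examined were Itga6, Itgb4, Itga3, Cd151, Col17a1, Dst, Plec, Lama3 and Lamb3, which are 9 of the 21887 protein-coding genes in the RefSeq annotation of the mouse assembly GRCm38.p6 (mm10). They were taken by name. A peak belonged to a gene when its summit, the position of strongest signal, lay inside the gene or within 50 kb of it and no other protein-coding gene was nearer. Overlapping peaks of all libraries were merged into regions, and 181 of 231612 regions belonged to these genes.

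In the hemidesmosome, the integrin made of the Itga6 and Itgb4 products spans the membrane beside the collagen encoded by Col17a1. The plakins encoded by Dst and Plec tie both to keratin filaments inside the cell. Laminin-332 lies outside the cell and is also bound by the integrin that contains the Itga3 product, and the tetraspanin encoded by Cd151 associates with these integrins. Inherited loss of several of these proteins causes blistering of the skin. Dst is also known for isoforms used in neurons and muscle.

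Open chromatin was measured by ATAC-seq, which marks DNA that a transposase can reach, in CD1 mouse embryos. Distal forelimb ectoderm and distal hindlimb ectoderm of embryonic stage E14.5 had 2 libraries each, and forebrain of stage E13.5 had 1. In such bulk tissue, fewer cells of a type and a weaker signal per cell cannot be told apart, and the spread between replicates may be technical. No genetic change or treatment is given for any group, and the labels do not say whether embryos were pooled or replicates came from separate litters. Tissue, stage and the enzyme used for dissociation (trypsin for ectoderm, collagenase for forebrain) differ together and cannot be told apart. Forebrain peaks outnumbered those of any ectoderm library, with 120297 against 51510 to 78147, and the shortest list was that of hindlimb replicate 1. Read totals were not used here. The peak folds and p-values imply a background of 3.1 to 4.36 reads per position in ectoderm and 4.62 in forebrain. The value of hindlimb replicate 1 was 4.36. Such a background is no measure of depth, and the cause of the short list of hindlimb replicate 1 was not tested. With 1 forebrain library and 2 libraries per limb no test was made, since 2 against 2 cannot go below a two-sided exact permutation p of 0.333. Missing peaks are peaks not called at the authors' threshold, which does not show that a site was closed. A region is called ectoderm-only when all 4 ectoderm libraries and not forebrain had a peak in it, and forebrain-only when forebrain and no ectoderm library had one.

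The labelled tissues were checked by peaks within 1 kb of start sites. Of 8 forebrain markers, all 8 had such a peak in forebrain and 2 to 5 in each ectoderm library. Of 8 epidermal markers, 4 to 7 had one in each ectoderm library and 4 in forebrain. Cdh1, Epcam, Tfap2a and Grhl2 had one in every library, forebrain included, and Trp63 in forelimb replicate 2 alone. Krt5 and Krt15, keratins of basal epidermis, had none in forebrain. The basal keratin gene Krt14 had no start-site peak in any library, and hindlimb replicate 1 lacked one at Krt5 and Krt15 too. Markers of limb mesenchyme had a start-site peak at 2 to 6 of 6 genes in the ectoderm libraries, and at all 6 in forebrain. Melanocyte markers had one at 2 of 5 genes in every ectoderm library, endothelial markers at 1 to 3 of 5, and blood markers at 1 or 2 of 5. In forebrain the numbers were 3, 4 and 3 of 5 in the same order. Mitf and Pmel (melanocyte), Kdr (endothelium) and Spi1 (blood) had a start-site peak in all 5 libraries. Sox10 and Tyr (melanocyte), Pecam1 (endothelium) and Ptprc and Hba-a1 (blood) had none in any library. The part of other cell types in the results below was not tested.

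In the main setting, ectoderm-only regions made up a larger share of the regions at these genes than of regions at all protein-coding genes, while forebrain-only regions did not. Of the 181 regions, 11 were ectoderm-only, a share of 6.08% (exact 95% interval 3.07 to 10.6, counting error only), beside 2.33% of all 165522 regions within 50 kb of a protein-coding gene. Forebrain-only regions numbered 53, or 29.3% (22.8 to 36.5), against 31.9% of all such regions. Another 11 had a peak in every library, at 6.08% against 8.74%. A peak in just 1 library was found in 117 regions, which include the 53 forebrain-only ones. Genes with an ectoderm-only region numbered 6 of the 9, namely Dst and Lama3 with 3 each, Itga3 with 2, and Col17a1, Plec and Lamb3 with 1 each. Among all protein-coding genes 13.0% had 1 or more, and 0.969% had 3 or more. A forebrain-only region was found at 6 of the 9, beside 52.2% of all genes, and Itgb4, Itga3 and Cd151 had none. These genes held more regions of any kind than most, with a median of 11 per gene against 4. Itga6, Itgb4 and Cd151 had no ectoderm-only region. Which genes had one depended on the setting. Itga6 had 2 without hindlimb replicate 1, and Itgb4 had 1 at a −log10 q of 5 or more, with lists of equal length or with summits within 200 bp. The single region of Col17a1 was lost at a −log10 q of 5 or more, with summits within 200 bp and when presence alone was held to that threshold. Without hindlimb replicate 1, Dst and Lama3 each had 6 and Col17a1 had 2.

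This count depended on hindlimb replicate 1, the library with the fewest peaks. A further 12 regions had a peak in 3 ectoderm libraries and not in forebrain, and the library without one was hindlimb replicate 1 in 11 of them. Leaving that library out gave 22 ectoderm-only regions, or 12.6%, against 5.15% of all regions treated alike. Over the 10 settings examined, the members' share lay between 3.87% and 12.6% and that of all regions between 1.38% and 5.15%, with the members' share the higher in each setting.

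**Figure D1:**
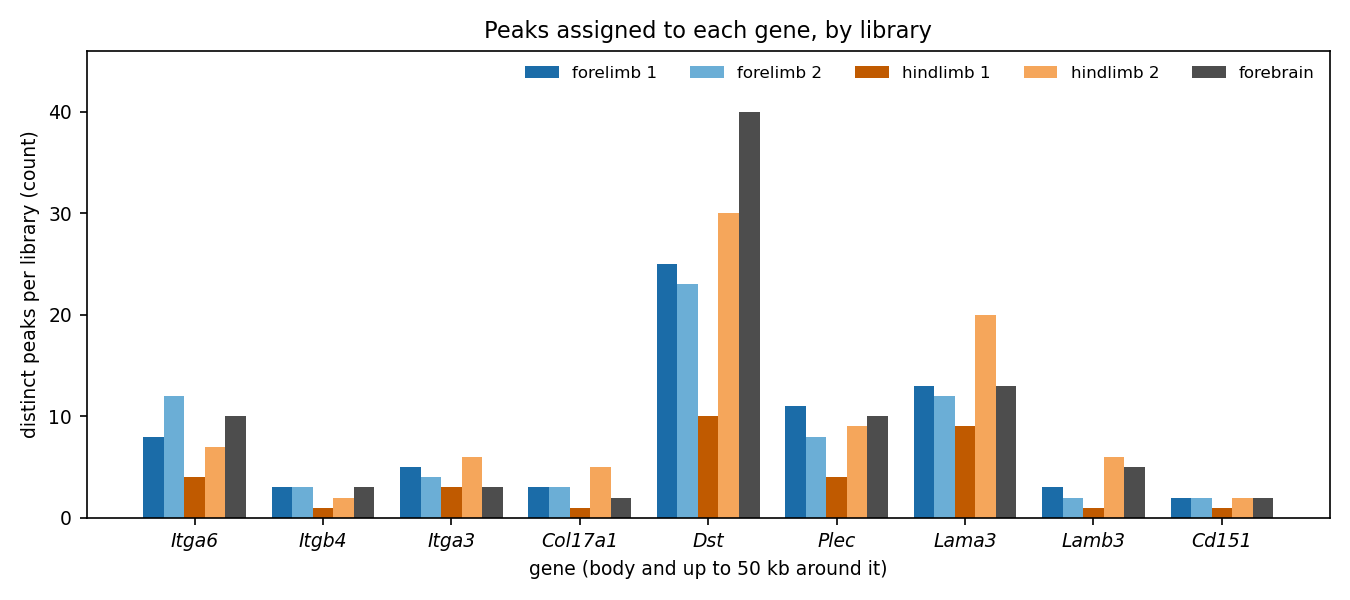
Bars give the number of distinct peaks assigned to each gene (body and up to 50 kb around it) in each of the 5 libraries. Dst has the most peaks in every library, from 10 in hindlimb replicate 1 to 40 in forebrain, and hindlimb replicate 1 is the lowest library, or tied for the lowest, at all 9 genes.

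The longest genes held the most peaks, and the library with the shortest list held the fewest. Forelimb replicates 1 and 2 had 73 and 69 peaks at the 9 genes, hindlimb replicates 1 and 2 had 34 and 87, and forebrain had 88. Per 1000 peaks of each list this was 0.989, 0.936, 0.66, 1.11 and 0.732 in the same order, so forebrain lay below 3 of the ectoderm libraries and above hindlimb replicate 1. Most of the peaks lay inside the genes, from 84.9% in forelimb replicate 1 to 89.8% in forebrain. Dst, at 400.8 kb the longest of the genes, had 73 regions, Lama3 (249.6 kb) had 39 and Itga6 (71.5 kb) had 26. The shortest, Cd151 (4.1 kb), had 2. Exon bounds were not used here, so a position inside a gene can be intronic or exonic.

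Shared regions were most frequent at start sites, at 30.8% against 4.67% elsewhere inside the genes. Ectoderm-only regions made up 15.4% at start sites, 4.0% elsewhere inside and 16.7% outside, so start sites did not stand above the outside regions. These shares rest on few regions and were not tested. The same split over all protein-coding genes was not set beside them, so it cannot be read as a trait of these genes. Listed starts were available for Dst, Lamb3, Cd151, Itga3 and Col17a1, and for Itga6, Itgb4, Plec and Lama3 both gene ends were examined instead. A region at an unlisted start inside a gene would count as elsewhere inside. Within 1 kb of these sites lay 13 regions, of which 4 were found in all 5 libraries, 2 were ectoderm-only and 1 was forebrain-only. Of the 150 regions elsewhere inside the genes, 7 were in all 5 libraries, 6 were ectoderm-only and 45 were forebrain-only. Gene ends were not used as sites for genes with a listed start. The shared region at the lower end of Dst, chr1:33906943-33908513, is therefore among the 7. The 18 regions outside the genes held 3 ectoderm-only, 7 forebrain-only and no shared region. By gene, 6 of the 9 (Itga6, Itgb4, Itga3, Dst, Lamb3 and Cd151) had a start-site peak in all 4 ectoderm libraries, beside 49.0% of all protein-coding genes. In forebrain 7 of 9 had one, beside 66.0% of all genes. Lamb3 had its start-site peak in each of the 4 ectoderm libraries but lacked one in forebrain, as did 0.516% of all genes, and Plec had one in forebrain alone, as did 3.85%. That peak of Plec lay near a gene end, since Plec had no listed start, and the pattern holds for the 1 kb window.

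**Figure D2:**
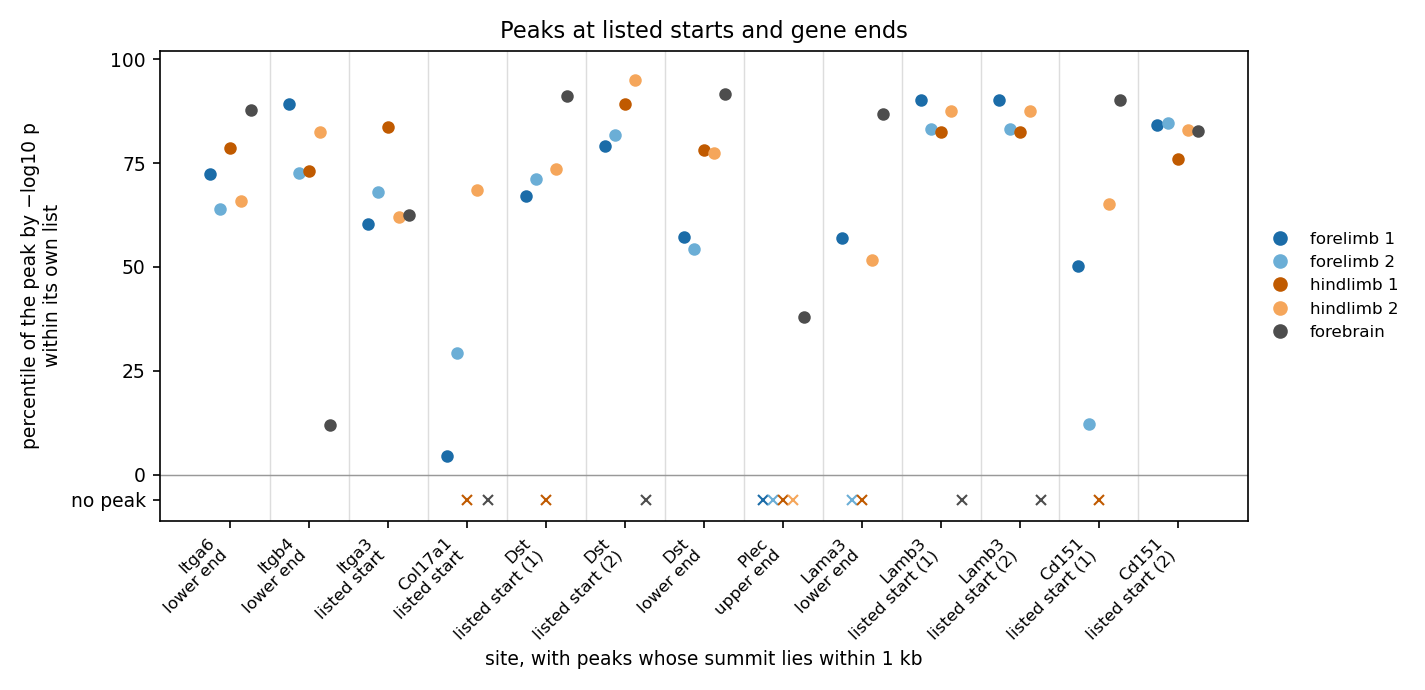
Points give, for each site, the percentile of its strongest peak by −log10 p within the list of its own library, and crosses mark libraries with no summit within 1 kb. The second listed start of Dst and both starts of Lamb3 carry a peak in all 4 ectoderm libraries and none in forebrain, and the first listed start of Dst carries one in forebrain at percentile 91.0.

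The starts of Dst, a plakin gene, differed from each other in the tissues where peaks were called. Its listed starts lay at 34011595 and 34160260 on the plus strand of chromosome 1, and the gene runs from 33907888 to 34308662. The sequences just before these starts, and before those of Lamb3, Col17a1 and Itga3, are shown because the starts differ in the libraries with a peak. Each is the run of 250 bases before a listed start, from RefSeq on GRCm38.p6, read 5′ to 3′ on the gene's strand. Capitals mark matches on either strand to GGGCGG, known as the GC box. They also mark TATAAA, known as the TATA box. The remaining capitals mark CCAAT, read as ATTGG on the opposite strand. No marked motif overlapped another.
Dst first listed start, chr1:34011345-34011594, plus strand: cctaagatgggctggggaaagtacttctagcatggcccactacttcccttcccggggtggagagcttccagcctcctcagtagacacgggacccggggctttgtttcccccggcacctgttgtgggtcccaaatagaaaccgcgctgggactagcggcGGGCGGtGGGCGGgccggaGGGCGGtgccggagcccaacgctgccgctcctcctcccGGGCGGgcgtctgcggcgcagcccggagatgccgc
Dst second listed start, chr1:34160010-34160259, plus strand: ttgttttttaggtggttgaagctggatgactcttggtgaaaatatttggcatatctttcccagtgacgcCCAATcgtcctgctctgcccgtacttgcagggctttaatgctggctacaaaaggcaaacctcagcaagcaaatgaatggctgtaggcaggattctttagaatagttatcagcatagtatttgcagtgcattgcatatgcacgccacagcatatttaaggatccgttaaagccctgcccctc
Lamb3 first listed start, chr1:193301744-193301993, plus strand: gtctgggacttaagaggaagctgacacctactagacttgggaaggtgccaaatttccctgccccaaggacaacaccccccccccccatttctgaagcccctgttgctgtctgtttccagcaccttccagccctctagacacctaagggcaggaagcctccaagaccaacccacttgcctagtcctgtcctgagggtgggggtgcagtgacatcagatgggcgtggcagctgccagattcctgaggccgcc
Col17a1 listed start, chr19:47692043-47692292, minus strand: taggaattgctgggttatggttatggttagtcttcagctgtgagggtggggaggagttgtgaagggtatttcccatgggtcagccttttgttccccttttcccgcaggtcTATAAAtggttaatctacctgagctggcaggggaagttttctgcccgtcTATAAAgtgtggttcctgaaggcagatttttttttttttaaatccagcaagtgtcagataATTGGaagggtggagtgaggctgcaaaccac
Itga3 outer listed start, chr11:95076715-95076964, minus strand: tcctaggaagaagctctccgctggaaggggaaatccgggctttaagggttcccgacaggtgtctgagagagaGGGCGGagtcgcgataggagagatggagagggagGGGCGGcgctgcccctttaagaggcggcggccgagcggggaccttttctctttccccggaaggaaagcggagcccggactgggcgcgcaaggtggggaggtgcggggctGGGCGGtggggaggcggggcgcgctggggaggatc

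At the second listed start of Dst, every ectoderm library had a peak and forebrain had none within 1 kb. All peak statistics given are those of the authors, each within the list of 1 library. The fold enrichment was 5.57 and 5.84 in forelimb replicates 1 and 2 and 6.19 and 11.9 in hindlimb replicates 1 and 2. The −log10 q was 15.6, 18.4, 21.2 and 94.2 in the same order, and by −log10 p their percentiles ran from 79.2 in forelimb replicate 1 upwards. All 4 summits lay before the start, by 75 to 143 bp, within the sequence shown. A separate forebrain-only peak lay close by, at chr1:34158662-34159205, 690 bp from the ectoderm region and with its summit 1247 bp from the start. It had a fold of 8.19 and stood at percentile 82.5 of the forebrain list. Its distance exceeds the 1 kb used here, and with a window of 2.5 kb the second start would count as having a forebrain peak.

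The first listed start of Dst had peaks in both tissues, though not in hindlimb replicate 1. The forebrain peak had a −log10 q of 92.5, at percentile 91.0. In forelimb replicates 1 and 2 and hindlimb replicate 2 the values were 9.17, 11.0 and 16.9, at percentiles 67.0, 71.1 and 73.6. The lower end of the gene, at 33907888, gave a like picture, with a −log10 q of 103 in forebrain and 6.33 to 20.6 in the 4 ectoderm libraries. This end overlaps the end of the neighbouring gene Bend6, so its peaks cannot be given to Dst alone. Of all listed starts, 0.55% had the pattern of the second Dst start, with peaks in the 4 ectoderm libraries alone.

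In the main setting, the ectoderm-only regions of Dst lay close together. They were chr1:34140084-34140491, chr1:34143108-34143753 and the start-site region chr1:34159895-34160454, which together span 20.4 kb of a 400.8 kb gene. Their nearest forebrain peaks were 75, 2068 and 690 bp away. At 34140084 the folds were 4.26 and 4.05 in forelimb replicates 1 and 2 and 3.3 and 7.51 in hindlimb replicates 1 and 2. At 34143108 they were 6.31, 5.12, 3.96 and 5.04 in that order. A region at chr1:34156034-34156328, also in this span, had a peak in every ectoderm library except hindlimb replicate 1 and none in forebrain. So did chr1:34127765-34128110 below it and chr1:33931698-33932014, which lay far from the span, 24.0 kb above the lower gene end. Without hindlimb replicate 1 these count as ectoderm-only too, so the short span depended on that library. Below the second start, up to 1 kb from it, 27 of 51 regions had a forebrain peak and 8 to 23 had one in each ectoderm library. Above it, 13 of 21 had a forebrain peak against 1 to 6 in the ectoderm libraries, and none was ectoderm-only. Dst held 27 of the 53 forebrain-only regions, led by chr1:34182347-34183897 inside the gene, at percentile 83.4 of the forebrain list. With lists of equal length the 27 became 9.

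**Figure D3:**
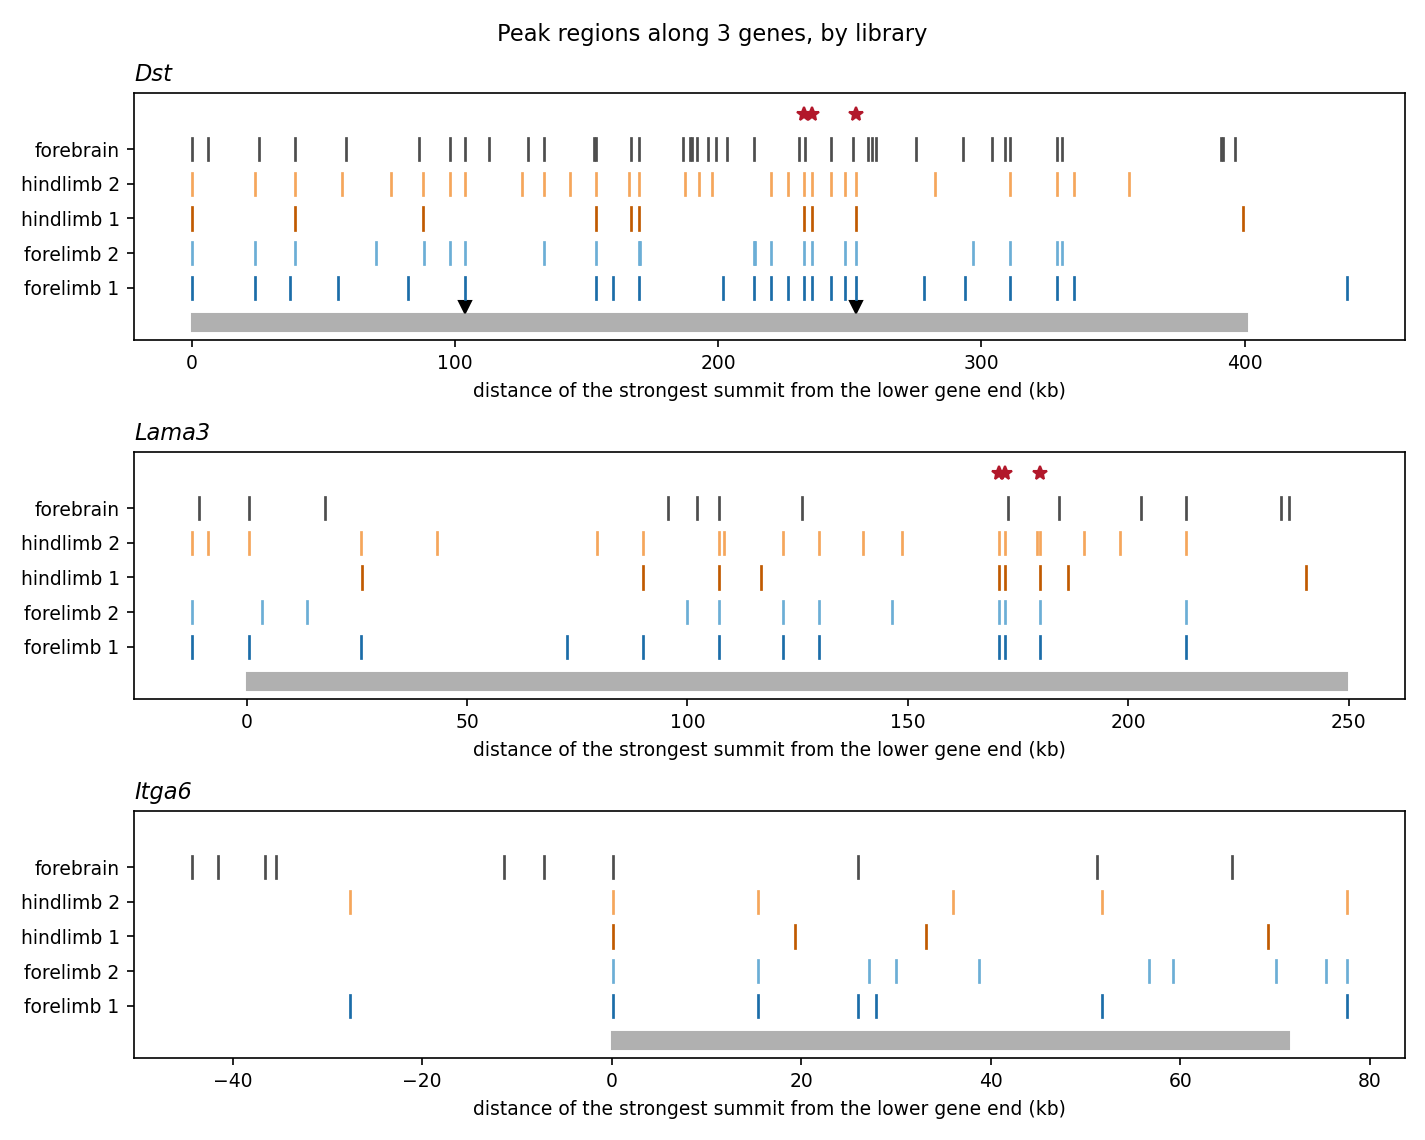
Ticks mark the regions with a peak in each library along Dst, Lama3 and Itga6, by distance of the strongest summit from the lower gene end in kb, with the gene as a grey bar, listed starts as black triangles and ectoderm-only regions as red stars. The stars of Dst lie between 232.4 and 252.2 kb and those of Lama3 between 170.6 and 179.9 kb, and Itga6 has none.

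Plec, the other plakin gene (chr15:76170974-76231378), was open inside the gene in both tissues. Of its 13 regions, 10 had a forebrain peak and 3 were present in all 5 libraries. Those were chr15:76197722-76199024, chr15:76207272-76207924 and chr15:76208084-76208842, all inside the gene with their summits 23086 bp or more from either end. In forebrain they had a −log10 q of 25.5, 23.4 and 14.8. Forelimb replicate 1 had 8.88, 16.8 and 19.6 and forelimb replicate 2 had 8.3, 7.89 and 5.78. Hindlimb replicate 1, with 1.82, 3.5 and 10.7, was the weakest at the first and second of them, and hindlimb replicate 2 had 30.6, 13.0 and 16.5. Its single ectoderm-only region, chr15:76158451-76159028, lay outside the gene, 12134 bp below its lower end and 32284 bp from the next gene, BC024139. This was among the strongest ectoderm-only regions, with a −log10 q of 37.4 and 26.7 in forelimb replicates 1 and 2 and 27.7 and 82.7 in hindlimb replicates 1 and 2, at percentiles 91.0, 87.4, 92.0 and 94.0. The upper end of Plec had a peak in forebrain alone, at a −log10 q of 5.42 and percentile 37.9. A further region, chr15:76229145-76229777, had its strongest summit 1838 bp from that end. It had peaks in forebrain and in forelimb replicate 1, there with a fold of 2.34. With a window of 2.5 kb that end would thus have an ectoderm peak too. The stronger of the 2 forebrain-only regions of Plec was chr15:76208963-76209305, inside the gene, with a fold of 4.01 at percentile 69.4.

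Lamb3, which encodes the beta chain of laminin-332 (chr1:193294353-193343878), had a start-site peak in every ectoderm library and none called in forebrain. The region chr1:193301776-193302333 covers both listed starts, at 193301994 and 193302243. Folds were 7.36 and 5.81 in forelimb replicates 1 and 2 and 4.56 and 7.61 in hindlimb replicates 1 and 2, at percentiles 90.1, 83.3, 82.4 and 87.6. In both forelimb libraries the summit was 6 bp before the first start. The nearest forebrain peak was 3040 bp away, in the forebrain-only region chr1:193305373-193305822, which had a fold of 6.44. The strongest peak of Lamb3 in any library was a forebrain peak at chr1:193329966-193330590, inside the gene, with a fold of 10.6 and a −log10 q of 103. Forelimb replicate 1 alone among the ectoderm libraries had a peak there, with a fold of 2.66. Lamb3 had 11 regions in all, of which 4 were forebrain-only. One more, chr1:193300088-193300399, had a peak in the other 3 ectoderm libraries but not in hindlimb replicate 1 or forebrain.

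Lama3, which encodes the alpha chain (chr18:12333417-12583013), had its ectoderm-only regions inside the gene. They were chr18:12503733-12504260, chr18:12505373-12505735 and chr18:12513167-12513482, a span of 9.8 kb with summits 69665 bp or more from either gene end. No start of Lama3 was listed, so whether these regions lie near a start inside the gene was not tested. At the first, folds were 4.52 and 7.13 in forelimb replicates 1 and 2 and 4.56 and 9.72 in hindlimb replicates 1 and 2, at percentiles 72.6 to 92.9. At the second they were 5.0, 4.37, 4.34 and 7.83 in that order. The third was weaker, with folds of 4.08, 4.44, 2.7 and 5.24, down to percentile 24.1 in hindlimb replicate 1, where its −log10 q was 2.49. Forebrain peaks lay 1708, 233 and 3995 bp from them. Another 4 regions had a peak in 3 ectoderm libraries and not in forebrain, the most for any of the 9 genes. The lower end of Lama3 had a peak in forelimb replicate 1, hindlimb replicate 2 and forebrain, where its −log10 q was 56.7 against 6.63 and 7.35 in the ectoderm libraries. One region inside the gene, chr18:12440171-12440851, was open in all 5 libraries, with a −log10 q of 92.1 in forebrain, 23.8 and 43.2 in forelimb replicates 1 and 2 and 5.43 and 23.6 in hindlimb replicates 1 and 2. Of the 39 regions, 10 were forebrain-only, led by chr18:12567811-12568151 at percentile 73.0. The count was 4 at a −log10 q of 5 or more and 1 with lists of equal length.

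Itga6 and Itgb4, which encode the hemidesmosomal integrin, were open at their lower ends in both tissues. At Itga6 (chr2:71786886-71858427) the −log10 q was 61.9 in forebrain. It was 11.3 and 8.48 in forelimb replicates 1 and 2 and 9.72 and 12.1 in hindlimb replicates 1 and 2, at percentiles 64.0 to 78.6 against 87.8 in forebrain. These percentiles come from lists of different lengths, so their order shows no difference between tissues. At Itgb4 (chr11:115974725-116008412) the ectoderm peaks had a −log10 q of 31.7 and 11.7 in forelimb and 7.36 and 28.4 in hindlimb, at percentiles 72.5 to 89.3, and the forebrain peak had 2.66, at percentile 11.9. With peaks held to a −log10 q of 5 or more, Itgb4 would thus have no forebrain peak there. The region chr11:116004653-116005553, inside Itgb4, ran the other way. It had a −log10 q of 28.0 in forebrain against 2.61 and 2.94 in forelimb replicates 1 and 2 and 1.46 in hindlimb replicate 2, and hindlimb replicate 1 had no peak. At that threshold Itgb4 had 1 ectoderm-only and 1 forebrain-only region. Itga6 had 8 forebrain-only regions, and 6 of these were among the 7 regions below its lower end. The strongest lay inside the gene at chr2:71852222-71852560, with a fold of 10.5 at percentile 83.2. With lists of equal length the 8 became 4. Itgb4 had 4 regions and, at the authors' threshold, no forebrain-only region.

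Itga3, which encodes the alpha subunit of another laminin receptor (chr11:95044475-95076844, minus strand), had 2 ectoderm-only regions among only 5. All of its regions had a peak in more than 1 library. At the outer listed start, 95076714, all libraries had a peak, at percentiles 60.4 and 68.0 for forelimb, 83.7 and 62.0 for hindlimb and 62.5 for forebrain. The inner listed start, 95069198, had none within 1 kb in any library. The ectoderm-only region chr11:95070148-95070600 lay 1139 bp from that start, with folds of 5.96 and 3.8 in forelimb replicates 1 and 2 and 3.04 and 7.02 in hindlimb replicates 1 and 2. The other, chr11:95096901-95097394, lay 20293 bp above the gene and 22980 bp from the next gene, Dlx3, a homeobox gene of the epidermis, so that the choice between these genes rests on distance alone. Its −log10 q was 44.4, 31.4, 16.8 and 92.9 in the same order, at percentiles 92.6, 89.5, 86.5 and 94.9. Its nearest forebrain peak was 9208 bp away.

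Cd151 (chr7:141467362-141471481) had 1 region at each of its listed starts, and none besides. The outer start, 141467362, had a −log10 q of 81.9 in forebrain against 5.69, 2.45 and 11.7 in forelimb replicates 1 and 2 and hindlimb replicate 2, with no peak in hindlimb replicate 1. The inner start, 141468789, was open in all 5 libraries, where the −log10 q was 21.1 and 22.0 for forelimb, 8.44 and 29.6 for hindlimb and 39.7 for forebrain. Percentiles there were 76.0 to 84.7 in ectoderm and 82.8 in forebrain.

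Col17a1 (chr19:47646341-47692042, minus strand) had a peak over its listed start, 47692042, in 3 ectoderm libraries and none in forebrain. Hindlimb replicate 2 had a fold of 5.38 at percentile 68.5, with the summit 5 bp from the start. Forelimb replicate 1 had 2.8 at percentile 4.58, and hindlimb replicate 1 had no peak. Forelimb replicate 2 had a fold of 3.25 at percentile 29.1 in that region, chr19:47691699-47692274, and a separate summit of near equal strength 556 bp inside the gene. The ectoderm-only region of Col17a1, chr19:47698093-47698675, lay 6177 bp above the gene, before the start. Its folds were 4.82 and 3.63 in forelimb replicates 1 and 2 and 4.04 and 3.56 in hindlimb replicates 1 and 2, at percentiles 62.1, 35.5, 69.5 and 43.6. The nearest forebrain peak was 27052 bp away. The stronger of the 2 forebrain-only regions of Col17a1 lay inside the gene at chr19:47658933-47659466, with a −log10 q of 29.7.

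**Figure D4:**
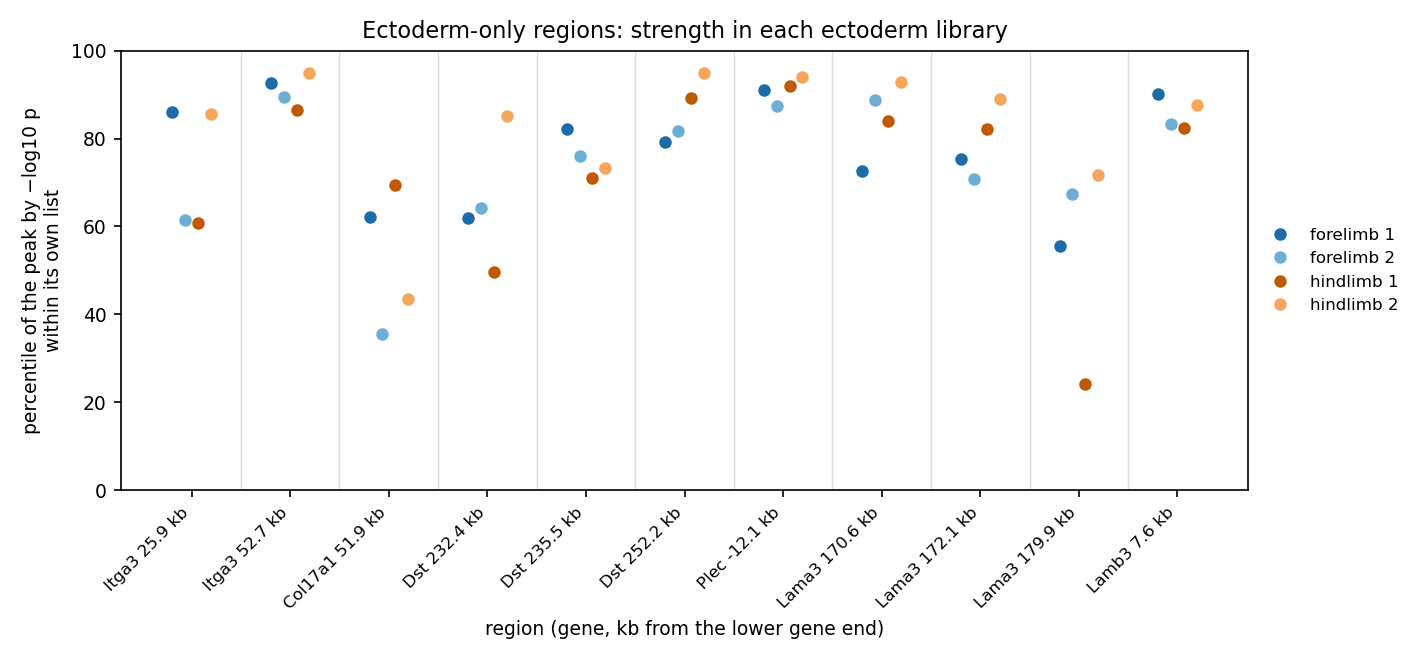
Points give the percentile of each ectoderm-only region's peak by −log10 p within the list of each of the 4 ectoderm libraries. Region names give the gene and the distance in kb from its lower end. The lowest percentile is 24.1, for the third Lama3 region in hindlimb replicate 1, and the highest is that of the second listed start of Dst in hindlimb replicate 2.

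The median percentile of the ectoderm-only regions was 79.2 and 76.0 in forelimb replicates 1 and 2 and 82.2 and 87.6 in hindlimb replicates 1 and 2. The 11 regions present in all 5 libraries had medians of 79.5, 68.0, 76.0 and 77.4 in the same libraries. Forebrain-only regions had a median of 41.0 in the forebrain list, against 74.5 for the shared regions there. A region must have been called 4 times to be ectoderm-only and once to be forebrain-only, so these medians are descriptions and no difference between them was tested.

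The bases before the starts differed too. The first listed start of Dst and the outer one of Itga3, open in forebrain and in 3 and 4 ectoderm libraries, each had 22 CpG dinucleotides in the 250 bases shown, with 4 and 3 GC boxes. The second start of Dst had 5 CpGs and no GC box, the first start of Lamb3 had 2 and none, and that of Col17a1 had 2 and none but held TATAAA at 2 positions. Few CpGs did not go with ectoderm-only peaks throughout, since the inner start of Cd151, with a peak in all 5 libraries, had 4 CpGs and no GC box. The outer start of Cd151 had 12 CpGs and 2 GC boxes. Over 21263 listed starts of protein-coding genes, the same window held a median of 10 CpGs, and 42.6% had a GC box, 11.6% TATAAA and 35.4% CCAAT. The 10064 starts with a peak in all 5 libraries had a median of 18 CpGs and a GC box in 64.9%. For the 117 with peaks in the 4 ectoderm libraries alone, the values were 3 and 23.1%, and for the 962 open in forebrain alone they were 6 and 32.6%. Starts with no peak in any library, 6203 in number, had a median of 2 CpGs and a GC box in 8.45%. Motifs of epidermal factor families were searched too. Neither TGANTCA (AP-1) nor GCCNNNGGC (AP-2) was found before the starts of Dst, Lamb3 or Col17a1, or before either start of Itga3. GCCNNNGGC was found at 2 positions before the outer start of Cd151 and at 1 before the inner one. TGANTCA occurred before 6.13% of all listed starts, 12.0% of the 117 with peaks in the 4 ectoderm libraries alone and 3.27% of those with a peak in all 5. Starts with no peak in any library had it in 10.0%, so a high share was not particular to the 117. GCCNNNGGC occurred before 16.3% of all listed starts and 22.1% of those with a peak in all 5. These are matches of letters in one window and not measured binding.

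Regions called in both libraries of 1 limb and neither of the other were few, both at these genes and over all regions. No difference from all regions can be read from counts this small. A peak in both forelimb and neither hindlimb library was found at 1 of the 181 regions, beside 1.98% of all regions, and the reverse at 1, beside 0.663%. Both lay inside Dst, the only one of the 9 genes with either, beside 12.3% of all genes with a forelimb-only and 4.67% with a hindlimb-only region. The forelimb-only region, chr1:34121149-34121674, had folds of 3.38 and 2.85 at percentiles 26.1 and 12.1, and forebrain had a peak there as well, with 3.74. The hindlimb-only region, chr1:33995552-33995851, had folds of 2.6 and 2.89 at percentiles 9.01 and 12.4 in hindlimb replicates 1 and 2. Neither reached a −log10 q of 5 in a library of its limb.

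Genes of the surrounding adhesion machinery also held ectoderm-only regions. Of 25 genes for basement membrane proteins, other laminin chains, further matrix receptors and basal keratins, 13 had an ectoderm-only region, with 21 ectoderm-only among 394 regions (5.33%, 3.33 to 8.03) and 129 forebrain-only (32.7%). Fras1 and Frem2, which encode basement membrane proteins, had 3 each. A start-site peak was present in all 4 ectoderm libraries at 19 of the 25 and in forebrain at 20. Of 12 genes for desmosomes, the junctions that join epidermal cells to each other, 6 had an ectoderm-only region, with 10 among 113 regions (8.85%, 4.33 to 15.7) and 26 forebrain-only (23.0%). Pkp1 and Perp had 3 each. The intervals of all 3 lists overlap, and differences between the lists were not tested. By number of ectoderm-only regions, 212 of the 21887 protein-coding genes had at least the 3 of Dst and Lama3, and the 4 with most were Cwc22 and Macrod2 (11 each) and Lsamp and Sfi1 (9 each).

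**Figure D5:**
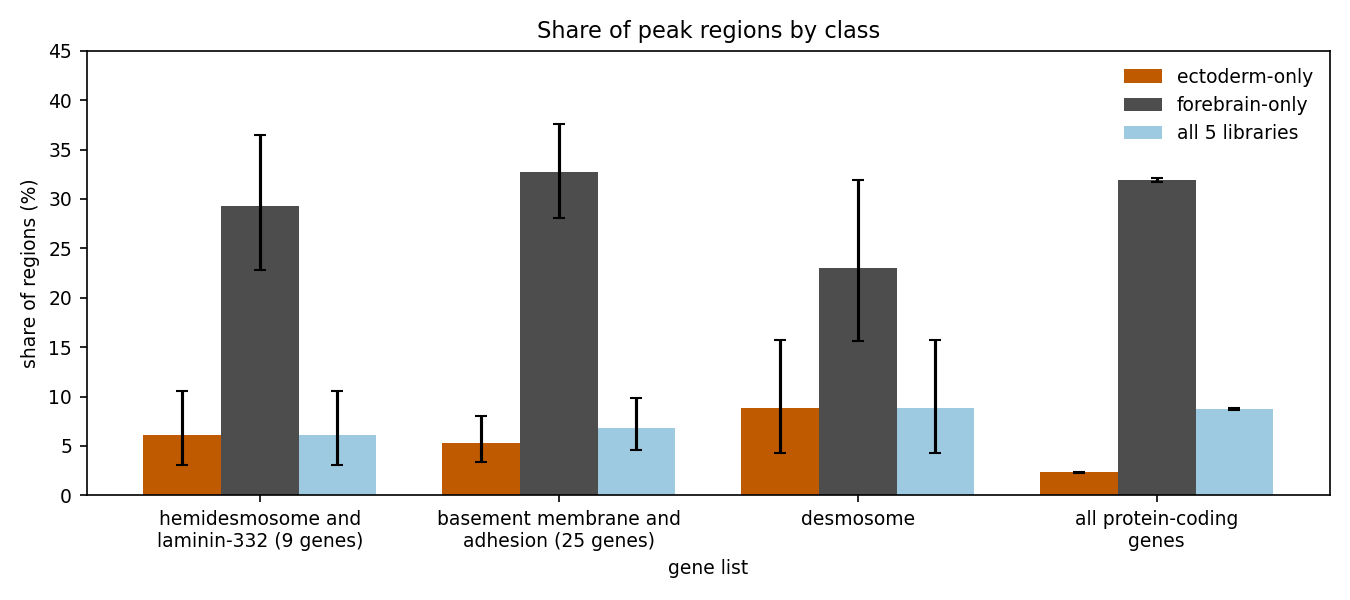
Bars give the share of regions (in %) that were ectoderm-only, forebrain-only or present in all 5 libraries for 3 gene lists and for all protein-coding genes, with exact 95% intervals that cover counting error only. The ectoderm-only share of the hemidesmosome and laminin-332 genes is 6.08% against 2.33% for all genes, and the forebrain-only shares are 29.3% and 31.9%.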

How the data were processed

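ATAC-seq peak lists of 5 libraries were used, 1 list per library. Build mm10 and the tools MACS2 2.1.1.20160309, bedtools, Picard, Bowtie2 2.3.5 and cutadapt 1.16 are named in the submitters' processing notes. Any shift of reads towards the inserted adapter was not given in the sources used here. Each deposited list gives a peak's score (not used), its fold enrichment (a ratio) and −log10 p and −log10 q, all as the authors' peak caller wrote them. The smallest −log10 q was about 1.30 in each list, the value of a q of 0.05. Only the autosomes and both sex chromosomes were used, and an interval with several summits counted as 1 peak. Peaks sharing 1 bp were merged into regions, and each region was placed by its summit of highest percentile. Starts came from a RefSeq promoter table of GRCm38.p6, which listed 21263 starts for 17492 protein-coding genes. For genes without one, both gene ends were used. Background rates were solved from fold and p under a Poisson model. Scripts ran in Python 3.11.15 with pandas 2.3.3 and scipy 1.17.1 and were tested on simulated peaks. Named were all 9 members, their start-site peaks, every ectoderm-only and limb-specific region and up to 2 forebrain-only regions per gene, of which the text gives the strongest. Members and gene lists were chosen with earlier results of these data known. Alternatives were a −log10 q of 5 or more, lists cut to 51510 peaks, each ectoderm library left out, summits within 200 bp, a stricter threshold for presence only, 100 kb around genes and 2.5 kb around starts.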

Additional observations from a re-analysis of the deposited data

How the results depend on the processing

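The main counts at the 9 genes were 11 ectoderm-only, 53 forebrain-only and 11 shared regions, and 8 ectoderm-only regions inside the genes. With presence alone held to a −log10 q of 5 or more, they gave 7 ectoderm-only regions, 5 of them inside the genes, and 7 regions in all 5 libraries. With both presence and absence at that threshold, 7 regions were in all 5 libraries and no hindlimb-only region remained of the 1. With every list cut to equal length there were 20 forebrain-only regions, and 0 for each limb. The forelimb-only count of 1 became 0 with summits within 200 bp, and both limb counts became 0 with the stricter threshold for presence only. Leaving out 1 ectoderm library at a time gave 11 to 22 ectoderm-only regions, 8 to 17 of them inside the genes, 10 to 20 regions in all 5 libraries, 1 to 22 forelimb-only and 2 to 29 hindlimb-only regions. The upper values of the first 3 came without hindlimb replicate 1, and a limb left with 1 library has a looser rule by construction. The counts of genes with a start-site peak stayed within 1.5 times in each setting, at 6 or 7 for ectoderm and 5 to 7 for forebrain. No paired analysis was possible because the results are counts of called peaks and come from no test. The lists give no read totals, so depth was not measured, and the cause of the short list of hindlimb replicate 1 was not tested. Whether a site without a called peak in that library was closed was not tested either.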
